A study of Sus scrofa with 28 samples.

Results

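The 10 lymphocyte genes followed here through the infarcted pig heart were the T cell genes CD3D, CD3E, CD2, CD5 and LCK, the natural killer (NK) and cytotoxic cell gene NKG7, the B cell receptor genes CD79A and CD79B, and the antibody secretion genes JCHAIN and MZB1. They were taken by symbol from the deposited tables of raw counts, and all 10 were found among the 17603 genes listed. The tables came from 28 libraries of poly(A) RNA, an infarct zone and a remote zone from each of 14 wild type pigs of 3 months of age that had 60 minutes of coronary balloon occlusion and then reperfusion. PBS (saline) or recombinant human Agrin, a matrix protein, at 33 µg per kg was given by the antegrade route at reperfusion, and hearts were taken on day 3 or day 28. Each day had 3 PBS and 4 Agrin animals. All animals carried the injury, so the remote zone of the same heart, and no uninjured heart, was the reference.

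T cells read antigen through a receptor that signals only through the CD3 chains. CD3D and CD3E are chains of that complex, LCK is the kinase that phosphorylates them, CD2 is an adhesion receptor that T cells share with NK cells, and CD5 is an inhibitory receptor that a subset of B cells carries too. NKG7 is a granule membrane protein of cytotoxic lymphocytes. CD79A and CD79B form the paired signalling chains of the B cell receptor, so a B cell needs both. JCHAIN links antibody chains into dimers and pentamers, and MZB1 is a chaperone of the endoplasmic reticulum that helps plasma cells assemble antibody. After a myocardial infarction, neutrophils and monocytes enter the dead muscle in the first days, and lymphocytes are a smaller part of the infiltrate.

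Totals were 15.38 to 34.77 M counts per library. The share of mitochondrial transcripts on day 3 was 5.783 to 10.56% in infarct tissue and 29.13 to 34.07% in remote tissue. Levels are given as scaled CPM, the counts of a gene per M counts of its library after the library total was multiplied by its TMM normalisation factor. On that scale 7 cardiomyocyte markers summed to between 2440 and 16400 in infarct tissue of day 3 and to between 60400 and 80600 in remote tissue. On day 28 the infarct library of animal 523 (PBS) stood apart, with 6.825% mitochondrial transcripts and a marker sum of 9160, while the other 6 infarct libraries had 18.07 to 34.47% and 45000 to 66200 and the 7 remote libraries 23.11 to 35.33% and 38400 to 67200. The library labelled infarct zone of animal 573 (PBS, day 3) held 733 counts of Y-linked genes and the library labelled remote zone of that animal held 0. In each of the other 13 animals both zones held such counts or both held 0. This check cannot find a mix-up between animals of the same sex. The zones labelled 573 may therefore not come from 1 animal, and each value within animal 573 rests on its labels. The infarct column of animal 577 (Agrin, day 3) carries an unexplained letter. Without animals 573 and 577 the counts of called members between zones on day 3 were 6 in PBS and 3 in Agrin, as with all animals. With all animals, 18.2% of 15409 genes tested rose in PBS and 19.3% in Agrin. The shares without these animals are not given here.

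The start regions of 5 of the genes are shown here because these genes carry the contrasts that follow: CD3E, a chain of the T cell receptor complex, NKG7 and JCHAIN, which had large changes, and CD79A and CD79B, partners in 1 receptor whose counts were far apart. Each run holds 250 bases before and 50 after the start of the RefSeq gene model on the Sscrofa11.1 assembly, read along the gene's strand. A model's start need not be the true start of transcription. Capitals mark every match on either strand to the letters ATTTGCAT (octamer, bound by OCT factors), CCCNNGGG (core of EBF sites), AGGAAG (core of ETS sites) or TGTGGT (core of RUNX sites).
CD3E: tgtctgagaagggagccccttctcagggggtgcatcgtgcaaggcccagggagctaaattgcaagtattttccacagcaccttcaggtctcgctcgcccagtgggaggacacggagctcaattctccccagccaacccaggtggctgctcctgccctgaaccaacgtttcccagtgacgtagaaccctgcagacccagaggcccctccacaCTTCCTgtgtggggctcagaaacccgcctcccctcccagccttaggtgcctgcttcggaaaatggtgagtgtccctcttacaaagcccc
NKG7: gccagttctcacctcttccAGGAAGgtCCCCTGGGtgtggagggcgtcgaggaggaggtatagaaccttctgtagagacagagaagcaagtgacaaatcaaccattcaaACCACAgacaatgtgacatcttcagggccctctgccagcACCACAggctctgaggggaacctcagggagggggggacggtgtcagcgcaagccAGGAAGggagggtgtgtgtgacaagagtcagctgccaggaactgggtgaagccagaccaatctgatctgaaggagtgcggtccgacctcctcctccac
CD79A: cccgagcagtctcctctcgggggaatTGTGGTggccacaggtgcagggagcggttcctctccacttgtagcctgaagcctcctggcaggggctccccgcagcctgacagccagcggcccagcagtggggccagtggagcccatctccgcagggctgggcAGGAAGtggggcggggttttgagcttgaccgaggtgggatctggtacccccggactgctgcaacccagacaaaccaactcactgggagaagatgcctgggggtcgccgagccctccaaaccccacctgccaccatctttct
CD79B: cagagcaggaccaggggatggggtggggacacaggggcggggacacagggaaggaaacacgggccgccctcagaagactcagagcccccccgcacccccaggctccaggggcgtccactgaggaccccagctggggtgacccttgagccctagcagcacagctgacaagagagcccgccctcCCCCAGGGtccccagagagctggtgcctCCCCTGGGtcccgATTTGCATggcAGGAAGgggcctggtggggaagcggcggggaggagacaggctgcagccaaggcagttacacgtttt
JCHAIN: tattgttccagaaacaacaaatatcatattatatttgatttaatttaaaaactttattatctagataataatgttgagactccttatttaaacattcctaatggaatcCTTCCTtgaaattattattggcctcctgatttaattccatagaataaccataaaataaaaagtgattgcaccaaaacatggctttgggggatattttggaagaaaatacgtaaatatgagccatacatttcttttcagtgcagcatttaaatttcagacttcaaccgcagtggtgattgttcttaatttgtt
These windows are chr9:45619480-45619779 (plus strand), chr6:58495839-58496138 (plus), chr6:49999245-49999544 (minus), chr12:15052716-15053015 (plus) and chr8:67448579-67448878 (minus).

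Among the 10 genes, an octamer was found in CD79B alone, and 1.39% of 19556 protein-coding start regions of this length held one. The EBF core was found in CD5, NKG7 and CD79B, against 19.9% of all start regions. The ETS core was found in 8 of the 10 genes, all but LCK and MZB1, against 29.5%. The RUNX core was found in CD79A and NKG7, against 16.1%. The matches of CD79B do not overlap each other, and its octamer lies 27 bases before the model's start. The CD79A window held neither an octamer nor an EBF core. The matches describe the letters of these windows only.

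A gene was called between groups at an edgeR adjusted p under 0.05, a log2 fold change of 1 or more in either direction and over 30 counts in at least 1 of the compared libraries, and the words rose and fell are kept for called genes. Values after ± are standard errors (SE). On day 3 in PBS hearts, 6 of the 10 genes rose in the infarct zone and none fell, where 18.2% of 15409 genes tested rose and 16.5% fell. NKG7, JCHAIN and MZB1 rose most, CD5, CD3E and CD3D less. In Agrin hearts on day 3, 3 of the 10 rose (NKG7, JCHAIN and MZB1), where 19.3% of genes rose and 15.5% fell. The median log2 fold change of the 10 was 1.56 in PBS and 0.77 in Agrin, against 0.04 and 0.06 over all genes. All libraries of the infarct zone lay above all of the remote zone for 7 of the 10 genes in PBS and 4 in Agrin, where 35.2% and 33.0% of 12848 genes did. In bulk RNA, a change in the number of cells and a change in RNA per cell cannot be told apart.

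**Figure D1:**
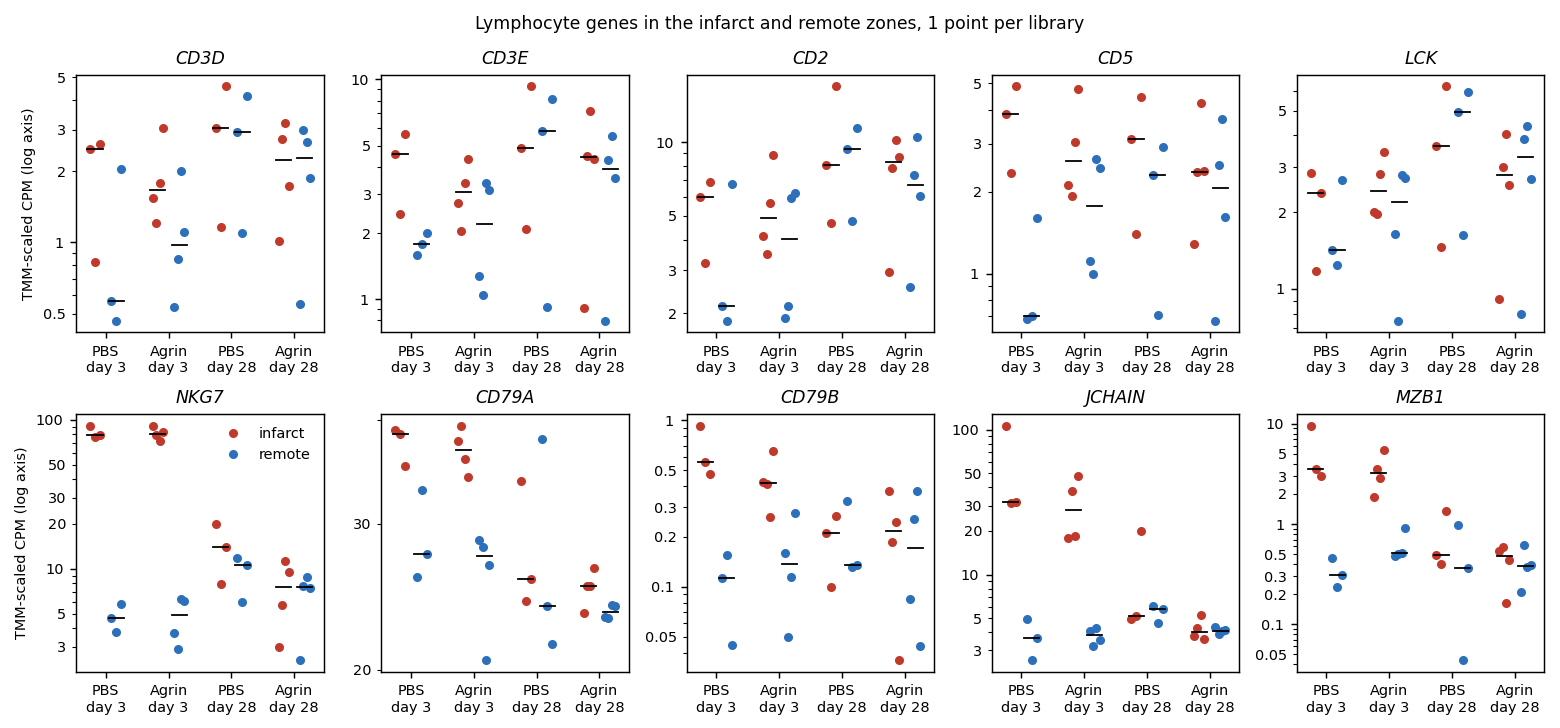
Scaled CPM (log axis) of each of the 10 genes in every library, by treatment and day, with infarct libraries in red, remote libraries in blue and a bar at each group's median. On day 3 the NKG7 points of the infarct zone lie between 72.2 and 91.5 and those of the remote zone between 2.9 and 6.3, and on day 28 the zones overlap for every gene in both treatments.

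Of the T cell genes, CD3E measured 4.59, 2.43 and 5.65 scaled CPM in the infarct zone of the PBS animals 571, 573 and 575 on day 3. The libraries labelled as their remote zones had 1.58, 1.79 and 2.01. All 3 infarct libraries lay above all 3 remote libraries, and the log2 fold change was 1.20 ± 0.283 (edgeR adjusted p = 0.0018). CD5 had 3.88, 2.34 and 4.88 in the infarct zone against 0.679, 0.7 and 1.61 in the remote zone. The zones did not overlap, and CD5 rose by a log2 fold change of 1.92 ± 0.255 (edgeR adjusted p = 1.33e-05), the largest change among the 5 T cell genes. CD3D had 2.48, 0.825 and 2.61 in the infarct zone against 0.566, 0.467 and 2.05 in the remote zone. It was higher in the infarct zone in each animal, but the zones overlapped through animal 575, and its log2 fold change of 1.03 ± 0.376 (edgeR adjusted p = 0.0259) sat just above the threshold. Without animal 573 the log2 fold changes were 1.51 for CD3E, 1.99 for CD5 and 1.08 for CD3D (edgeR adjusted p = 0.000783, 8.31e-05 and 0.0442). Without animal 571 that of CD3D was 0.48 with an edgeR adjusted p of 0.312, and without the animal block the edgeR adjusted p was 0.263 for CD3D and 0.145 for CD3E.

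CD2 and LCK were not called. The CD2 levels in the PBS infarct zone on day 3 were 5.99, 3.21 and 6.86, and those in the remote zone were 2.15, 1.87 and 6.74. The log2 fold change of CD2 was 0.71 ± 0.27 (edgeR adjusted p = 0.0307), under the threshold on size. LCK had 2.85, 1.17 and 2.39 in the infarct zone and 1.42, 1.25 and 2.68 in the remote zone, with a log2 fold change of 0.26 ± 0.272 (edgeR adjusted p = 0.406). Animal 575 had the highest remote level of the PBS animals for each of the 5 T cell genes, and LCK was higher in its remote zone than in its infarct zone. Over 12 alternative settings the log2 fold change of LCK ranged from -0.14 to 0.92.

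In Agrin hearts on day 3 the 5 T cell genes had log2 fold changes between 0.45 (LCK) and 0.80 (CD3D), and none was called. CD3E measured 2.73, 2.04, 3.39 and 4.35 in the infarct zone of animals 570, 572, 576 and 577 and 1.28, 1.05, 3.38 and 3.13 in their remote zones. The ratio of the zones was 2.14 in animal 570, 1.95 in animal 572, 1.00 in animal 576 and 1.39 in animal 577, so the zones overlapped. CD5 had 2.12, 1.93, 3.06 and 4.78 in the infarct zone and 1.12, 1.00, 2.63 and 2.44 in the remote zone. CD3D, CD3E, CD2 and CD5 passed the edgeR adjusted p of 0.05 here with changes under the threshold on size, as 37.6% of all genes tested did in that direction with no such threshold.

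The difference between the treatments was tested directly. The response of CD5, the change from remote to infarct zone, was lower in Agrin than in PBS by a log2 difference of -1.17 ± 0.329, with an unadjusted p of 0.00309 and an edgeR adjusted p of 1. None of the 10 genes was called in this test on day 3, and 0 of all 15409 genes were (0.0%), while 684 had an unadjusted p under 0.05 and DESeq2 called 2. A difference in the response of the T cell genes between the treatments was thus not shown.

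**Figure D2:**
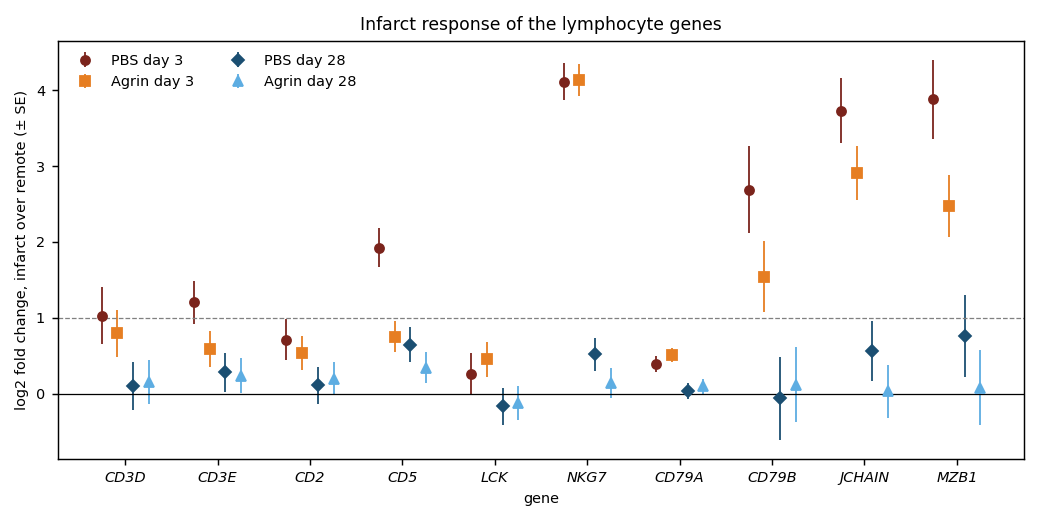
Log2 fold change of infarct over remote zone (± SE, derived from the edgeR test) for each gene in PBS and Agrin animals on day 3 and day 28. A dashed line marks the threshold of 1. NKG7 stands at 4.11 and 4.14 on day 3 in PBS and Agrin and at 0.52 and 0.13 on day 28, while CD79A lies at 0.39 and 0.51 on day 3.

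The log2 fold changes of the 5 T cell genes on day 3, 0.26 to 1.92 in PBS and 0.45 to 0.80 in Agrin, lay below that of a gene shared by all leukocytes. PTPRC, which encodes the leukocyte antigen CD45, rose by a log2 fold change of 3.05 ± 0.305 in PBS and 3.38 ± 0.268 in Agrin on day 3 (edgeR adjusted p = 1.22e-06 and 9.69e-08), and all 9 pan-leukocyte genes tested rose in both. Per 1000 PTPRC counts, the 5 T cell genes together had 120 to 216 counts in the 7 infarct libraries of day 3 (median 164) and 651 to 1730 in the 7 remote libraries (median 897). The zones did not overlap, and the value was lower in the infarct zone in 7 of 7 animals, the pair labelled 573 included, with the same ranges in the other 6. Relative to PTPRC, 91.4% of 12848 genes were lower in the infarct zone in every animal on day 3, and 84.9% did not overlap between the zones, so this ratio is shared with most genes and describes only how far PTPRC rose past them. On day 28 the same ratio was 475 to 1020 in the infarct zone (median 864) and 452 to 997 in the remote zone (median 822), and it was lower in the infarct zone in 4 of 7 animals.

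The ratio to PTPRC was also taken for NKG7 and the antibody secretion genes. NKG7 counts per 1000 PTPRC counts were 701 to 1230 in the infarct zone and 250 to 745 in the remote zone on day 3, higher in the infarct zone in 7 of 7 animals. JCHAIN had 172 to 885 against 158 to 809 per 1000 PTPRC counts, and MZB1 had 17.7 to 79.5 against 13.5 to 102. Both overlapped between the zones, with JCHAIN lower in the infarct zone in 2 of 7 animals and MZB1 in 3 of 7.

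**Figure D3:**
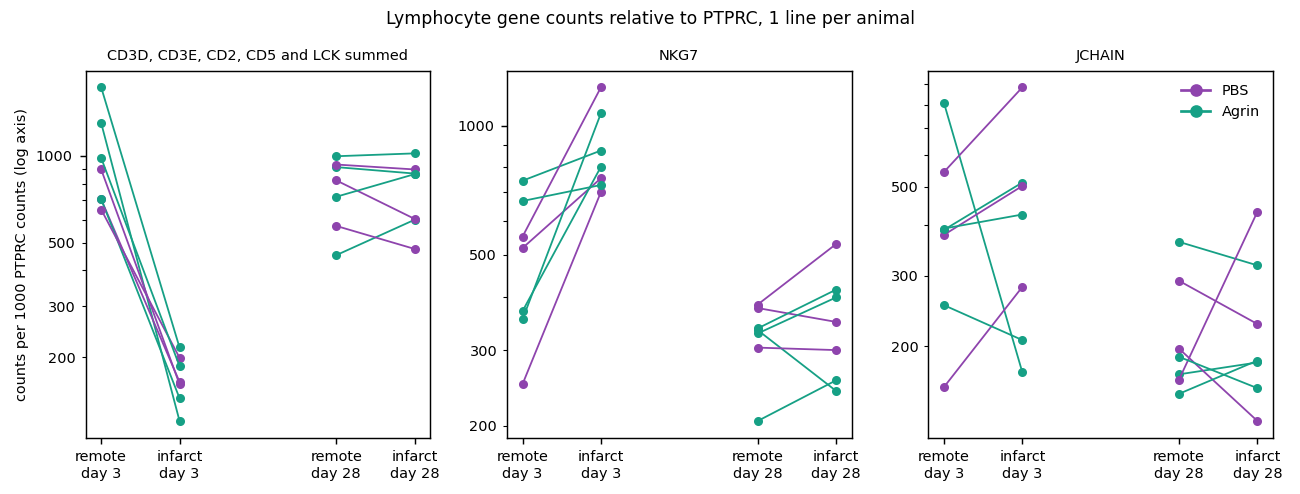
Counts per 1000 PTPRC counts (log axis) of the 5 T cell genes summed, of NKG7 and of JCHAIN in the remote and infarct zones, with 1 line per animal, PBS in purple and Agrin in green. On day 3 the summed T cell genes drop from 651 to 1730 in the remote zone to 120 to 216 in the infarct zone, NKG7 is higher in the infarct zone in every animal, and on day 28 the zones overlap in all 3 panels.

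Other genes of T cells were read from lists of genes that are not members. Over all 15409 genes tested, 18.2% rose and 16.5% fell in PBS on day 3, and 19.3% and 15.5% in Agrin. These shares stand beside every list count of day 3. Of 19 T cell receptor and signalling genes tested, 7 rose and 0 fell in PBS on day 3, with a median log2 fold change of 0.99, and 7 rose and 0 fell in Agrin, with a median of 0.81. The largest changes in PBS were those of CD28 (5.38 ± 0.553), the co-stimulatory receptor of T cells, PTPN22 (4.83 ± 0.349), a phosphatase that damps receptor signalling, LCP2 (2.97 ± 0.273), an adaptor, SIT1 (1.89 ± 0.291), another adaptor, and RHOH (1.69 ± 0.312), a GTPase of blood cells, and each also rose in Agrin. PTPN22 and LCP2 are expressed in myeloid cells too, and CD28 rested on 17 to 94 counts in the PBS infarct zone and 0 to 1 in the remote zone. CD247 and ZAP70, direct partners of the members, were not called in PBS. CD247, the zeta chain of the receptor, changed by 0.93 ± 0.176 (edgeR adjusted p = 0.000314). ZAP70, the kinase that acts after LCK, changed by 0.61 ± 0.346 (edgeR adjusted p = 0.133). ZAP70 in PBS infarct libraries had 0.781 to 2.24 scaled CPM and in remote libraries 0.7 to 2.1, so the zones overlapped.

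Of 19 genes of T cell subsets and regulation, 8 rose and 3 fell in PBS on day 3, where 18.2% of all genes rose and 16.5% fell. In Agrin 7 rose and 1 fell, where 19.3% of all genes rose and 15.5% fell. The genes of this list that fell are not named here. IL7R (5.12 ± 0.536), the receptor of the survival cytokine interleukin 7, IL2RG (3.27 ± 0.162), the chain shared by several cytokine receptors, and CCR7 (2.7 ± 0.389), a homing receptor, rose in PBS, and each also rose in Agrin. IL2RG is carried by myeloid cells as well.

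NKG7 had the largest change of the 10 genes in both treatments. Its counts in PBS on day 3 were 2942, 1752 and 2151 in the infarct zone and 83, 48 and 130 in the remote zone of animals 571, 573 and 575. In Agrin they were 2375, 2088, 1937 and 2520 against 70, 58, 110 and 131 in animals 570, 572, 576 and 577. Scaled, all 7 infarct libraries lay between 72.2 and 91.5 and all 7 remote libraries between 2.9 and 6.3. The log2 fold change was 4.11 ± 0.243 in PBS and 4.14 ± 0.21 in Agrin, 17.3-fold and 17.7-fold (edgeR adjusted p = 1.02e-08 and 1.29e-09), and within single animals the infarct zone was 11.5 to 27.3 times as high. The difference between the treatments was 0.03 ± 0.299.

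Other genes of NK and cytotoxic cells were read in the same way. Of 18 such genes tested, 3 rose and 0 fell in PBS and 2 rose and 0 fell in Agrin, where 18.2% and 19.3% of all genes tested rose, and the median log2 fold changes were 0.15 and 0.23. TYROBP (3.77 ± 0.177 in PBS and 4.05 ± 0.156 in Agrin), a signalling adaptor of NK and myeloid cells, and CCL5 (3.13 ± 0.318 and 2.64 ± 0.27), a chemokine of T cells, NK cells and macrophages, rose in both treatments, and NCR1 (1.97 ± 0.528), an activating receptor of NK cells, rose in PBS. PRF1, which encodes the pore protein perforin of the same granules as NKG7, changed by 0.63 ± 0.317 in PBS (edgeR adjusted p = 0.0929) and by 0.84 ± 0.269 in Agrin (edgeR adjusted p = 0.0117), with 1.52 to 4.41 scaled CPM in the PBS infarct zone and 0.933 to 3.39 in the remote zone. GNLY, another granule protein, changed by -0.36 ± 0.418 in PBS and -0.35 ± 0.355 in Agrin. NKG7 had 1752 or more counts in every infarct library of day 3 and PRF1 at most 120.

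**Figure D4:**
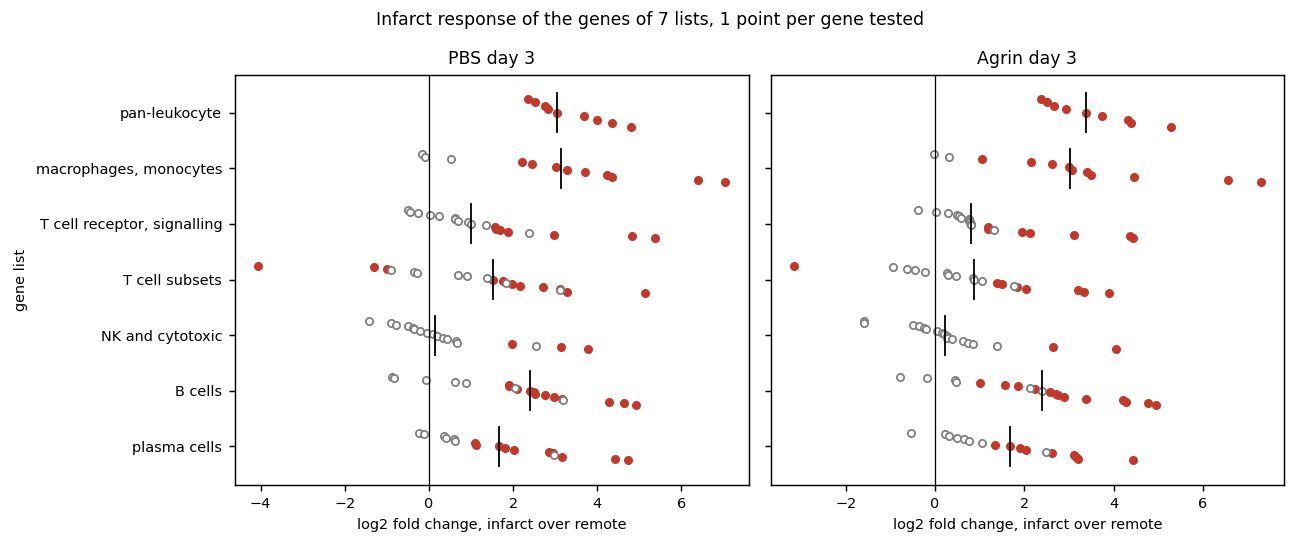
Log2 fold change of infarct over remote zone on day 3 for each tested gene of 7 lists that exclude the 10 members, in PBS (left) and Agrin (right), with called genes in red, other genes open and a bar at each list's median. The NK and cytotoxic list has medians of 0.15 and 0.23, the pan-leukocyte list 3.05 and 3.37.

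Genes of myeloid cells moved with the infarct zone on day 3. Of 12 macrophage and monocyte genes, 9 rose in PBS and 10 in Agrin, with median log2 fold changes of 3.14 and 3.03, and their summed level was 1590 to 2710 scaled CPM in the 7 infarct libraries and 106 to 343 in the 7 remote libraries. Of 4 neutrophil genes tested, 3 rose in each treatment, and the 5 matched summed to 53 to 101 in the infarct zone and 1.15 to 5.67 in the remote zone, with MPO at 0 in every PBS remote library. Their part in the changes of NKG7 and of the lists was not tested.

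JCHAIN rose in both treatments, with a wide spread among infarct zones. It had 107, 31.1 and 31.7 scaled CPM in the infarct zone of PBS animals 571, 573 and 575 on day 3 and 4.93, 2.57 and 3.66 in the remote zone. In Agrin animals 570, 572, 576 and 577 it had 18.0, 37.7, 18.6 and 48.2 against 4.04, 3.20, 4.29 and 3.55. Every infarct library lay above every remote library in both treatments, and the log2 fold change was 3.73 ± 0.424 in PBS and 2.91 ± 0.357 in Agrin (edgeR adjusted p = 3.66e-06 and 5.8e-06). Animal 571 had 3452 JCHAIN counts in its infarct zone, more than any other, and without it the PBS value was 3.31 (edgeR adjusted p = 0.000106).

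MZB1 was measured at a lower level. Its PBS infarct values were 9.62, 3.56 and 3.01 and its remote values 0.453, 0.233 and 0.312. Its Agrin infarct values were 1.85, 3.52, 2.91 and 5.53 and its remote values 0.479, 0.5, 0.515 and 0.922. Animal 571 was highest in PBS and animal 577 in Agrin for both JCHAIN and MZB1, and no zones overlapped. MZB1 rose by 3.88 ± 0.524 in PBS and 2.48 ± 0.41 in Agrin (edgeR adjusted p = 1.54e-05 and 8.56e-05), and the difference between the treatments was -1.41 ± 0.69 (edgeR adjusted p = 1). The PBS remote counts of MZB1 were only 3 to 8 per library, so its fold change there is imprecise.

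Of 17 other genes of plasma cells and antibody secretion, 10 rose and 0 fell in PBS on day 3, and 9 rose and 0 fell in Agrin, with medians of 1.66 and 1.68. SDC1 (4.74 ± 0.343 in PBS), a proteoglycan that marks plasma cells and is also made by other cells of injured tissue, POU2AF1 (4.42 ± 0.69), the B cell partner of OCT factors, PRDM1 (3.17 ± 0.21) and IRF4 (2.95 ± 0.342), transcription factors of plasma cells that myeloid and T cells use too, and SLAMF7 (2.86 ± 0.506), a surface receptor of plasma and NK cells, were the largest. POU2AF1 had 42 to 164 counts in the PBS infarct libraries and 0 to 4 in the remote libraries, and 17 to 83 against 1 to 5 in Agrin. XBP1, the factor of the secretory program that many cells express, changed by 0.59 ± 0.117 in PBS and 0.50 ± 0.101 in Agrin, under the threshold on size. TNFRSF17, the survival receptor of plasma cells, changed by 0.40 ± 0.38 in PBS and 1.05 ± 0.468 in Agrin and was not called. The gene most like JCHAIN over the 28 libraries after removal of group means was one with no name in the tables (ENSSSCG00000048391, Pearson r = 0.81).

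CD79A and CD79B, which act only as a pair, were measured at very different levels. CD79A had 359 to 1254 counts in each of the 28 libraries and CD79B 1 to 30, so CD79A had 41.8 to 735 times the counts of its partner. Per kilobase of RefSeq exon (672 bases for CD79A and 1555 for CD79B), the median was 56.2 scaled CPM for CD79A and 0.307 for CD79B in the day 3 infarct zone, and 41.1 and 0.0736 in the remote zone.

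The pair also differed in how far it changed. In PBS on day 3, CD79A measured 38.9, 38.5 and 35.2 scaled CPM in the infarct zone and 25.9, 33.0 and 27.6 in the remote zone, a log2 fold change of 0.39 ± 0.109 (edgeR adjusted p = 0.0059). In Agrin it measured 37.7, 39.4, 36.0 and 34.1 against 28.7, 28.1, 20.6 and 26.7, a log2 fold change of 0.51 ± 0.0941 (edgeR adjusted p = 0.000229). The zones did not overlap in either treatment, yet the change was under the threshold on size. CD79B had 30, 13 and 13 counts in the PBS infarct libraries and 2, 2 and 1 in the remote libraries. Its log2 fold change was 2.69 ± 0.572 (edgeR adjusted p = 0.000821), but no library exceeded 30 counts, so it was not called. In Agrin it had 11, 11, 7 and 20 counts against 3, 1, 2 and 6, with a log2 fold change of 1.54 ± 0.464 (edgeR adjusted p = 0.00844).

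**Figure D5:**
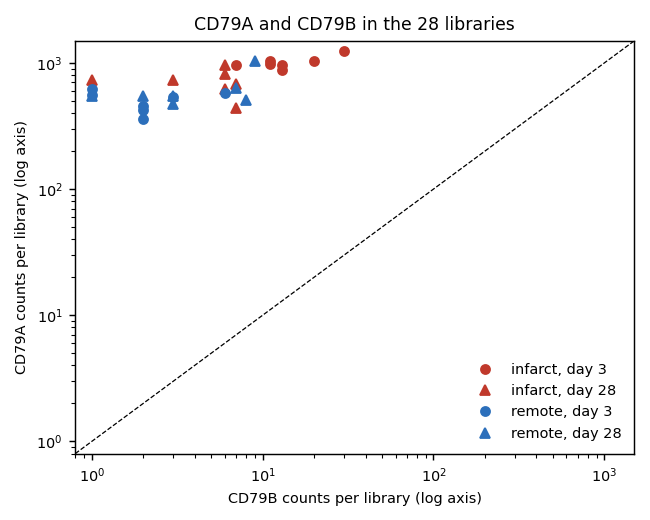
Counts of CD79A against counts of CD79B in each of the 28 libraries (both axes log), infarct in red and remote in blue, day 3 as circles and day 28 as triangles, with a dashed line where the counts would be equal. All libraries lie far above the line, with CD79A between 359 and 1254 and CD79B between 1 and 30.

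Over the 28 libraries, with the mean of each group removed from log2 CPM, the 3 genes most like CD79A among 12908 were one with no name in the tables (ENSSSCG00000003042, Pearson r = 0.947), FLT3LG (0.946), a growth factor of dendritic cell precursors, and RPS20 (0.945), a ribosomal protein, while its correlation with CD79B was 0.25. These correlations rest on points that share depth and composition, since both zones are labelled as coming from the same heart and CPM divides every gene by the same total. The summed level of 67 ribosomal protein genes on day 3 was 25800 to 31600 scaled CPM in infarct tissue and 19700 to 25000 in remote tissue. The correlation of CD79A with that sum was 0.711. The counts are given here as those listed under the name CD79A, and which transcripts they hold was not tested.

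Of 19 other B cell genes tested, 12 rose and 0 fell in PBS on day 3, where 18.2% of all genes rose. In Agrin 13 rose and 0 fell, where 19.3% of all genes rose. The medians were 2.40 in PBS and 2.39 in Agrin. The largest in PBS were CD180 (4.92 ± 0.31), a receptor related to the toll-like receptors, BTK (4.63 ± 0.249) and SYK (4.27 ± 0.238), kinases of B cell receptor signalling, BLNK (3.17 ± 0.279), their adaptor, and CD37 (2.96 ± 0.165), a tetraspanin. All 5 are expressed in myeloid cells as well. Also on this list, CD22 had 5.08 to 15.3 scaled CPM in the PBS infarct zone and 1.79 to 2.41 in the remote zone. BANK1 had 15.9 to 38.3 against 1.87 to 8.07 there. In Agrin CD22 had 5.98 to 9.24 against 0.875 to 2.0, and BANK1 16.8 to 32.0 against 2.02 to 6.13. The zones of both genes did not overlap in either treatment.

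Among 22 genes of lymphocyte attraction and survival, 10 rose and 4 fell in PBS on day 3, and 9 rose and 2 fell in Agrin. The chemokine receptors CCR6 (4.18 ± 0.626 in PBS) and CXCR4 (2.81 ± 0.328) were among the largest. So were IL6 (3.94 ± 0.918), a cytokine that drives antibody secretion among other effects, and TNFSF13B (3.22 ± 0.264), the B cell survival factor BAFF. CCR6 and IL6 did not pass the filter on low counts within the remote zone, so their fold changes are imprecise. The genes that fell in PBS were CXCL10, CXCL9, S1PR1 and CXCL12, and those in Agrin were CXCL10 (-1.32 ± 0.386) and CXCL9 (-1.06 ± 0.35), which encode interferon-induced chemokines that draw CXCR3-bearing T cells. CXCR3 itself rose by 1.98 ± 0.406 in PBS and 2.58 ± 0.361 in Agrin.

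On day 28 none of the 10 genes was called between the zones in either treatment. In PBS, 5.58% of genes rose and 2.25% fell in the infarct zone on that day, and in Agrin 0 of 15409 genes were called (0.0%), with 599 at an unadjusted p under 0.05 and 0 called by DESeq2. The median log2 fold change of the 10 genes was 0.20 in PBS and 0.13 in Agrin, and every gene overlapped between the zones in both, where 10.2% of 12848 genes in PBS and 0.864% in Agrin had all infarct libraries above all remote libraries. NKG7 had 19.99, 7.92 and 13.9 scaled CPM in the PBS infarct zone of animals 523, 536 and 547 and 11.8, 6.01 and 10.6 in their remote zones, higher in the infarct zone in 3 of 3 animals, with a log2 fold change of 0.52 ± 0.217 (edgeR adjusted p = 0.0941). CD5 changed by 0.64 ± 0.232 (edgeR adjusted p = 0.0571). JCHAIN had 4.91, 5.16 and 20.04 in the infarct zone against 6.09, 4.65 and 5.78 in the remote zone. Only animal 547 had a high infarct level, and the change was 0.56 ± 0.397 (edgeR adjusted p = 0.32). CD3D, CD3E, CD2, LCK, CD79A and CD79B had log2 fold changes from -0.17 (LCK) to 0.28 (CD3E) in PBS, with edgeR adjusted p-values of 0.463 or more. In Agrin the 10 genes lay between -0.12 (LCK) and 0.34 (CD5), each at an edgeR adjusted p of 1. The infarct library of animal 523, low in cardiomyocyte markers, had the highest NKG7 level of day 28, and its part in the differences was not tested. Without animal 523, 381 of all genes were called between the zones in PBS in place of 1207.

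MZB1 in the same PBS hearts of day 28 had 14, 12 and 36 counts in the infarct zone and 27, 1 and 8 in the remote zone, a log2 fold change of 0.76 ± 0.543 (edgeR adjusted p = 0.322). Without animal 523, whose remote zone was the higher one, it was 2.18 (edgeR adjusted p = 0.0285) and MZB1 was called. In Agrin hearts of day 28, MZB1 had 10, 19, 4 and 12 counts in the infarct zone and 5, 17, 8 and 9 in the remote zone. Of the 19 other B cell genes, 4 rose in PBS on day 28, where 5.58% of all genes rose, and none in Agrin. They were FCRL1 (2.42 ± 0.777), FCRLA (2.27 ± 0.39), CD72 (1.14 ± 0.232) and CD180 (1.02 ± 0.282). FCRL1 did not pass the filter on low counts within the remote zone. Of the 17 plasma cell genes, SDC1 (2.19 ± 0.309), TXNDC5 (1.44 ± 0.194) and CREB3L2 (1.00 ± 0.195) rose in PBS, and none in Agrin. The share of all genes that rose in PBS was again 5.58%. TXNDC5 and CREB3L2 also reached 2446 and 1435 counts in PBS remote libraries. The list calls of day 28 were not checked without animal 523, and the part of other cell types in them was not tested. None of the 19 T cell receptor and signalling genes was called on day 28 in either treatment.

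The change between the days was tested as the difference of the infarct responses. In PBS, 4 of the 10 genes had a lower response on day 28 than on day 3, where 11.7% of genes did and 12.8% had a higher one. They were NKG7 (-3.59 ± 0.318, edgeR adjusted p = 3.29e-06), JCHAIN (-3.17 ± 0.571, 0.000769), MZB1 (-3.12 ± 0.786, 0.00619) and CD5 (-1.28 ± 0.347, 0.0093). Of the T cell genes not called here, CD3E was called in 4 of 14 alternative settings and CD2 in 1 of 14. Without animal 573 the CD3E difference was -1.24 (edgeR adjusted p = 0.0218), which was called. In Agrin, NKG7 (-4.01 ± 0.284, 1.37e-07), JCHAIN (-2.88 ± 0.497, 0.000241) and MZB1 (-2.40 ± 0.653, 0.00625) had a lower response on day 28, where 17.6% of genes did and 15.0% had a higher one. CD3D, CD3E, CD2 and LCK were not called in this test in either treatment, with differences from -0.93 to -0.34 and edgeR adjusted p-values from 0.0678 to 0.383. CD79B (-2.75 ± 0.817, edgeR adjusted p = 0.015) and CD79A (-0.35 ± 0.153, edgeR adjusted p = 0.0772) in PBS were not called, nor in Agrin were CD79A (-0.42 ± 0.133, 0.0158), CD79B (-1.43 ± 0.689, 0.0922) and CD5 (-0.41 ± 0.29, 0.245). Without animal 571 the CD5 difference in PBS was -0.997, just under the threshold on size, and without animal 523 that of MZB1 was -1.69 (edgeR adjusted p = 0.0657).

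Within the infarct zone alone, which compares different animals, the same 3 genes fell from day 3 to day 28 and no T cell gene was called. NKG7 fell by 2.50 on the log2 scale in PBS and by 3.36 in Agrin, JCHAIN by 2.44 and 2.76, and MZB1 by 2.80 and 2.89 (edgeR adjusted p from 7.66e-06 to 0.00717), where 10.4% of 14968 genes fell in PBS and 16.3% in Agrin, and 15.6% and 17.7% rose. CD79A (-0.36 ± 0.124) and CD79B (-1.72 ± 0.586) passed the edgeR adjusted p in PBS without being called, as 21.7% of genes did in that direction with no other threshold. In Agrin their differences were -0.45 ± 0.108 (edgeR adjusted p = 0.00256) and -1.02 ± 0.524 (edgeR adjusted p = 0.107). The 5 T cell genes differed between the days by -0.25 to 0.95 in PBS and by -0.11 to 0.53 in Agrin, with edgeR adjusted p-values of 0.152 or more. In the remote zone 0 of 14324 genes were called between the days in either treatment (0.0%), with 1465 in PBS and 1294 in Agrin at an unadjusted p under 0.05, and DESeq2 called 22 higher and 16 lower in PBS and 16 higher and 9 lower in Agrin. The T cell genes of the PBS remote zone had differences from 0.96 ± 0.649 (CD5) to 1.47 ± 0.728 (CD3E), with edgeR adjusted p-values from 0.503 to 0.612. CD79B was too low to be tested in the remote zone, and NKG7, CD79A, JCHAIN and MZB1 differed there by -0.05 to 0.99 in PBS and by -0.61 to 0.45 in Agrin, with edgeR adjusted p-values of 0.443 or more.

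None of the 10 genes was called between Agrin and PBS in the infarct zone or the remote zone on either day, by edgeR or by DESeq2. In the infarct zone on day 28, 0.261% of genes were higher in Agrin and 4.04% lower, and in the other 3 comparisons the share was 0.0%. An unadjusted p under 0.05 was found for 170 genes in the infarct zone on day 3 and for 554 and 656 in the remote zone on day 3 and day 28. The largest differences on day 28 in the infarct zone were those of JCHAIN (-1.24 ± 0.579, edgeR adjusted p = 0.176) and NKG7 (-0.89 ± 0.36, edgeR adjusted p = 0.129). NKG7 had 3.00, 5.68, 11.3 and 9.47 scaled CPM in the Agrin animals 519, 522, 544 and 548 and 19.99, 7.92 and 13.9 in the PBS animals, so the treatments overlapped. The other 8 genes differed by -0.77 (MZB1) to 0.10 (CD79B) there, with edgeR adjusted p-values of 0.418 or more. In the infarct zone on day 3 the 10 genes differed by -0.92 (JCHAIN) to 0.24 (LCK), and in the remote zone the 9 tested differed by -0.13 (CD79A) to 0.86 (MZB1) on day 3 and by -0.54 (NKG7) to 0.09 (CD5) on day 28. Without animal 523 the NKG7 difference in the infarct zone on day 28 was -0.55 (edgeR adjusted p = 0.51), and 114 of all genes were called in place of 643. Without animal 536 the NKG7 difference was -1.17 (edgeR adjusted p = 0.0489) and was called. The test of the infarct response between treatments on day 28 called none of the 10, where 0.487% of genes had a lower response in Agrin and 0.0% a higher one. Its differences for NKG7 and JCHAIN were -0.38 ± 0.294 and -0.53 ± 0.531 (edgeR adjusted p = 0.467 and 0.585), and those of the other 8 genes ranged from -0.69 (MZB1) to 0.18 (CD79B). Without animal 523, 4 of all genes were called in that test in place of 75.

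On day 28 the T cell genes differed more between animals than between the zones of an animal. Animal 519 (Agrin) had the lowest level of all 5 T cell genes in both zones, and animal 547 (PBS) had the highest level of all 5 in the infarct zone and of 4 of 5 in the remote zone. CD3E measured 0.91 and 0.799 in the infarct and remote zone of animal 519, and 9.30 and 8.17 in animal 547. LCK had the same 17 and 19 counts as CD3E in animal 519, and so also 0.91 and 0.799, and it measured 6.24 and 5.91 in animal 547. The ratio of infarct to remote zone for CD3E lay between 0.835 and 1.29 in 6 of the 7 animals and was 2.27 in animal 536. PTPRC was also lowest in animal 519, with 220 and 283 counts, and the 5 T cell genes had 600 and 452 counts per 1000 PTPRC counts there.

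The same residuals, log2 CPM less the group means, were compared between the 10 genes. Pearson correlations among the 5 T cell genes over the 28 libraries were 0.874 (CD3D with CD3E) to 0.954 (CD5 with LCK), those of NKG7 with them 0.769 to 0.869, and that of JCHAIN with MZB1 0.653. ZAP70 was among the 3 genes most like CD3D, CD3E, CD5 and LCK, at 0.947 to 0.974, and ITGB7, an integrin chain of gut-homing lymphocytes, among those of CD3D, CD2, CD5 and LCK, at 0.95 to 0.962. CD8A, a co-receptor of cytotoxic T cells, led for CD2 at 0.963. For NKG7 the nearest were ITGAL (0.928), the integrin chain of LFA-1, RASAL3 (0.925) and FYB1 (0.924), and among the 3 nearest to MZB1 were ERAP2 (0.754) and GPRC5D (0.745), a receptor of plasma cells. CD79B, at its low counts, had no gene above 0.746. Pairs of libraries from 1 heart are not independent, and no p is given.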

How the data were processed

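RNA was extracted by the authors from frozen infarct and remote tissue of each pig heart and sequenced single-end as poly(A) libraries. Reads were trimmed with cutadapt, aligned with STAR 2.7.3a to the pig genome and counted per gene with HTSeq, and the deposited tables hold these raw counts. The deposited tables of normalized values and of the authors' own comparisons (fold changes and p-values) were not used. Names were given for 13009 genes in the tables and for 661 more by the reference, and 3933 had none.

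Counts were tested with edgeR 4.0.16 in R 4.3.3 (robust quasi-likelihood fit, filterByExpr, TMM). The comparison of zones used all 28 libraries, 15409 genes and the animal as a block, since both zones of a pair are labelled as 1 heart (Y-linked counts disagreed within animal 573), with 1 infarct coefficient for each treatment and day. Levels within a zone were compared over 14 libraries (14968 genes in the infarct zone and 14324 in the remote zone). P-values were adjusted by the Benjamini-Hochberg method over all genes of each of 16 comparisons, and calls used an adjusted p under 0.05, a log2 fold change of 1 or more in size and over 30 counts in at least 1 library compared, the study's thresholds. The script was tested on simulated data. Alternatives were other scalings, no filter, DESeq2 1.42.0, no block, other thresholds and leaving out animals.

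All 10 members were tested in each comparison, except CD79B in the remote zone, and members that were not called are mostly given by ranges. Of each other gene list, up to 5 called genes with the largest change and direct partners of members are named. GNLY, MPO, TNFRSF17, CD22, BANK1, CXCR3, CXCL9, CXCL10, CXCL12 and S1PR1 were named after their values were seen. The members and lists were chosen with earlier results of these data known. CD3G, LAT, MS4A1 and GZMB matched no name and are not analysed here, and some other genes and 1 start region within these rules are not reported here. Start regions and exon lengths are from RefSeq (Sscrofa11.1), which was not the annotation used for counting. Libraries held 15.38 to 34.77 M counts, and a gene with few counts is imprecise.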

Additional observations from a re-analysis of the deposited data

Results flagged for a closer look

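The infarct response, the log2 change from remote to infarct zone, differed between the days in the edgeR test of that difference for 4 genes in PBS hearts and 3 in Agrin hearts, where 11.7% and 17.6% of all genes had a lower response on day 28. In PBS the day 28 response was lower by a log2 difference of -3.59 for NKG7, -3.17 for JCHAIN, -3.12 for MZB1 and -1.28 for CD5. In Agrin it was lower by -4.01 for NKG7, -2.88 for JCHAIN and -2.40 for MZB1. The days are different animals, and each had its own remote zone as the reference.

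Of 40 groups of 4 libraries examined for a sample far from the others, 1 stood out, where chance gives about 1 in 20. MZB1 in the remote zone of Agrin animal 577 on day 3 was 0.922 scaled CPM (20 counts), while the other 3 animals lay between 0.479 and 0.515. The infarct column of the same animal carries the unexplained letter, and the link between these facts was not tested.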

How the results depend on the processing

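No call of NKG7, JCHAIN or MZB1 between the zones on day 3 was lost under any alternative, with log2 fold changes of 4.01 to 4.77, 3.31 to 4.39 and 3.50 to 4.55 in PBS and 3.95 to 4.85, 2.59 to 3.61 and 2.37 to 3.18 in Agrin. No called value changed direction. In Agrin on day 3, 9 of the 10 genes were called in place of 3 with library totals alone as the scaling and 9 with the adjusted p alone as the threshold. With the adjusted p alone, 37.6% of all genes were called higher there. Library totals moved the median of all genes to 0.69 in PBS and 0.76 in Agrin on day 3, and the difference of the responses between the days in Agrin to -0.70. In that difference 7 of the 10 genes were called in place of 3. Over all genes, 5037 were then called lower and 1271 higher, in place of 2707 and 2314. With the adjusted p alone, 5 genes in place of 3 were called between the days in the PBS infarct zone, where 21.7% of all genes were lower. With library totals the calls of all genes between the zones in PBS on day 3 were 5197 higher and 1467 lower, and in Agrin 5596 higher and 1260 lower. Leaving out 1 animal gave 5 to 7 called genes between the zones in PBS on day 3, 3 to 4 in Agrin and 0 to 1 in PBS on day 28 (MZB1). It gave 3 to 5 for the days in PBS, and 0 to 1 for Agrin against PBS in the infarct zone on day 28 (NKG7). The shares of all genes called in these fits are mostly not given here. Without the replicate block, that is without the pairing of zones, 4 genes were called in PBS on day 3 in place of 6, 3 in Agrin, and 3 in place of 4 for the days in PBS. Over all genes, 2721 were then called higher and 2491 lower in PBS on day 3, and 2910 and 2381 in Agrin. For the days in PBS it was 1701 higher and 1596 lower. With the replicate block and the libraries of PBS day 3 alone, 5 of the 10 genes were called between the zones, with CD3D at an edgeR adjusted p of 0.0959. Over all genes, 2663 were then called higher and 2494 lower. The alternative without animals 573 and 577 was chosen after seeing the data. Alternative values were counted for genes called in a comparison by the main fit or by any alternative. Of these, 555 kept their side of the threshold, 36 passed it newly and 7 lost it. Uncalled values that changed direction were left out of this count. The causes of these shifts were not tested. Depth limits CD79B and the remote levels of MZB1, CD28, CCR6, IL6 and FCRL1, which rest on few counts.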
